A study of Mus musculus with 13 samples.

Results

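The regions described here are stretches of open chromatin that were called in every WT library and in no CAT library of regulatory T cells, and that hold no TCF1 binding interval. They were chosen by joining the peaks of the 5 ATAC-seq lists that overlap by at least 1 bp into 49014 union regions. Of these, 29570 had a peak in all 3 WT libraries, and 5910 of those (19.99%) had no peak in either CAT library and no TCF1 interval. The loss in CAT is therefore what chose them, and their peak calls, widths and numbers are given as a description with no test. What the choice did not use is the RNA of the same genotypes, the position of the regions and the letters of the promoters they cover.

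CAT mice were Foxp3Cre-YFP Ctnnb1flex3, with 3 RNA and 2 ATAC libraries, and WT mice were Foxp3Cre-YFP, with 3 of each. Both were C57BL/6 males of 21 days, and both carry the Cre-YFP allele that the Foxp3 gene drives, so that recombination takes place in cells that have expressed Foxp3. In CAT cells exon 3 of Ctnnb1, which holds the residues that mark β-catenin for degradation, can be removed, and β-catenin is then stabilised. YFP+ CD25+ cells were sorted from CD4 T cells of lymph nodes. The TCF1 intervals come from 1 library of Foxp3Cre-YFP WT mice aged 10 to 12 weeks, from lymph nodes and spleen. TCF1 binding in CAT cells was not analysed here, so a region without TCF1 is a region without an interval in WT cells of that age. The labels do not say whether libraries of a group came from separate animals, and p-values measure the spread between libraries.

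Regulatory T cells restrain other immune cells, and they depend on the transcription factor Foxp3. Their identity is held by a set of distal regulatory elements, many of them opened in the thymus, which bind ETS, RUNX, Forkhead and other factors. β-catenin has no DNA-binding domain of its own and acts on genes through TCF1, LEF1 and their relatives, so regions that change without a TCF1 interval are those in which that route is not visible in the TCF1 list used here. ATAC-seq reads where a transposase can insert into chromatin, and a peak is a stretch with more insertions than the local background. A peak that falls under a caller's threshold is absent from the list whether its chromatin closed or its signal was lower.

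Of the 5910 regions, 448 reached into a promoter window, taken as the 250 bases before to the 50 bases after a transcription start in RefSeq, build GRCm38.p6. The windows of 7 genes are shown, because they let the start of a gene that lost its peak be read beside the change of its RNA. At least 150 bases of each lie in a lost region. They are those of the 3 largest increases (Gzma, Esm1, Aldh1a2) and the 3 largest decreases (Noxa1, Hgf, Dleu7) among 96 genes that had such a start, passed the test, had a mean of at least 1 FPKM in either genotype and were above 0 in every library, and that of Foxp1, which held 8 lost regions. This choice was made after values were seen. Capitals mark the letters CAGGTG (an E-box of E proteins and ZEB1), CCGGAAG (ETS) and CCAATC (NFY), or their reverse complements, which are the motifs whose shares differed most between lost and retained promoters. The windows are chr13:113100932-113101231 (minus strand) for Gzma, chr13:113209409-113209708 (plus) for Esm1, chr9:71215539-71215838 (plus) for Aldh1a2, chr2:25095156-25095455 (minus) for Noxa1, chr5:16553651-16553950 (plus) for Hgf, chr14:62292930-62293229 (minus) for Dleu7 and chr6:99028249-99028548 (minus) for Foxp1.
Gzma: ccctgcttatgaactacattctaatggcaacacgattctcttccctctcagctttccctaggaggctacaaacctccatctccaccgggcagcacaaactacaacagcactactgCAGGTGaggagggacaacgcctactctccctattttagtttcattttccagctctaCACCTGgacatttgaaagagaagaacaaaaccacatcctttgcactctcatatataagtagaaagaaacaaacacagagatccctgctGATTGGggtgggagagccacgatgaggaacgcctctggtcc
Esm1: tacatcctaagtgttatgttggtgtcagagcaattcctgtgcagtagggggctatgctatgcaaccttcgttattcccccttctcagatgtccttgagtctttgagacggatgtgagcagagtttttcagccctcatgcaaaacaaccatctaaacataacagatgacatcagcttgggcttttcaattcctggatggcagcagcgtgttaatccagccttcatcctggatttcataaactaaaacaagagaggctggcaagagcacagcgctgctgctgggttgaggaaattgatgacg
Aldh1a2: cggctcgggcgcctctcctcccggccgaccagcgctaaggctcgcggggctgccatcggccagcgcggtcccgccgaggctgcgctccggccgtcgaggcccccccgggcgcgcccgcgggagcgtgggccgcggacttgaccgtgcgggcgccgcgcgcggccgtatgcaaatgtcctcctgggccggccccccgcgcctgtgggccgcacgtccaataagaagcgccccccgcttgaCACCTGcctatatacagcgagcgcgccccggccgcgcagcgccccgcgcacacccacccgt
Noxa1: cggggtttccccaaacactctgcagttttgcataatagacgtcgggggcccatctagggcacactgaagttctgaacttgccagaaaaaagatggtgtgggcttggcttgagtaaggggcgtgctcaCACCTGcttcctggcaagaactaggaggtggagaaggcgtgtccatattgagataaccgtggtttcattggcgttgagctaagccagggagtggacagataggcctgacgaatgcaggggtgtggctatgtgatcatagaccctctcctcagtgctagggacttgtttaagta
Hgf: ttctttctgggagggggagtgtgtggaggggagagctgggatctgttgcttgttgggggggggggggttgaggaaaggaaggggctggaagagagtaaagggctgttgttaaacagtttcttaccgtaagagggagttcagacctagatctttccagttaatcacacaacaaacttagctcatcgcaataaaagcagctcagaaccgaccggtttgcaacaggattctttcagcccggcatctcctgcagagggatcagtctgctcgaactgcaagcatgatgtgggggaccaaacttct
Dleu7: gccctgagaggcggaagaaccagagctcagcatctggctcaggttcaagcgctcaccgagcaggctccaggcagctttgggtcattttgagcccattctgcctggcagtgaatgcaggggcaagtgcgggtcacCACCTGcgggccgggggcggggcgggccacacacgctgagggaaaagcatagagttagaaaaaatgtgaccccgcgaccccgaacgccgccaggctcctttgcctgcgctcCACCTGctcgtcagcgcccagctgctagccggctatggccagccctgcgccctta
Foxp1: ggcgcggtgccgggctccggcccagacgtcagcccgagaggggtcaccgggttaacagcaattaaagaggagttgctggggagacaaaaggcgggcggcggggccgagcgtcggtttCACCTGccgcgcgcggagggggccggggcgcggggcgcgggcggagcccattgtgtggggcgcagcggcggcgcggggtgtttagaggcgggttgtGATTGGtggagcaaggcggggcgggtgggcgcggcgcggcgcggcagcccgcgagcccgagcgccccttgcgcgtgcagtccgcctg
The sequences are of different kinds: the Aldh1a2 window has a GC content of 78.0% and that of Foxp1 75.3%, against 46.3% for Esm1 and 47.7% for Gzma. CAGGTG or its complement CACCTG stands in the windows of Gzma, Aldh1a2, Noxa1, Dleu7 and Foxp1, and CCGGAAG in none of the 7.

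Lost regions were small in WT cells and far from genes' starts. Their median width was 392 bp (quartiles 305 and 581 bp), against 709 bp (459 and 1013 bp) for the 15131 regions that had a peak in all 5 libraries and no TCF1 interval, called common below. Their WT peaks were narrow in each library, with medians of 325, 290 and 257 bp in WT replicates 1, 2 and 3, against 610, 569 and 515 bp in common regions. Of the 5693 lost regions that could be placed against transcription starts, 671 (11.8%) lay within 1 kb of a start, 2666 (46.8%) lay further off but inside a gene body and 2356 (41.4%) lay between genes. Among common regions 38.8% lay within 1 kb of a start. The median distance to a start was 17.8 kb for lost regions and 7.14 kb for common ones. The 1929 regions gained in CAT were placed like the lost ones, with 7.45% within 1 kb of a start, and so were the 144 lost regions that do hold a TCF1 interval, with 11.3%.

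TCF1 intervals, which the choice of regions used, were rarer at lost than at retained sites. Of all 6054 lost regions 2.38% overlapped a TCF1 interval, against 23.6% of the 19815 regions with a peak in all 5 libraries. The intervals were all 142 bp wide, and wide regions can hold more of them. Within 1 kb of 72 of the 5910 regions, and within 100 bp of 5, there was an interval that did not overlap.

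The share of WT regions that were lost fell with the width of their WT peaks. Among regions with a peak in all WT libraries and no TCF1 interval, split into 5 equal classes by mean WT peak width, 47.7% of the narrowest class (91 to 267 bp) had no CAT peak, then 31.8%, 23.6% and 12.6%, and 4.31% of the widest (809 to 4494 bp). The order was the same within 1 kb of a start, at 44.8% of the narrowest and 2.42% of the widest, and further off, at 48.1% and 7.63%. In the widest class the distal share was thus above the promoter share. The CAT lists held 27129 and 29548 peaks, against 41197, 35771 and 33204 in WT, and their median peak width was 254 bp in both CAT lists, against 384, 399 and 385 bp in WT. The median of the authors' pileup signal was 8.95 and 8.34 in CAT, against 13.3, 13.8 and 12.9 in WT. A lower signal in CAT libraries and closed chromatin cannot be told apart from peak lists, and the read depth of these libraries is unknown.

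**Figure D1:**
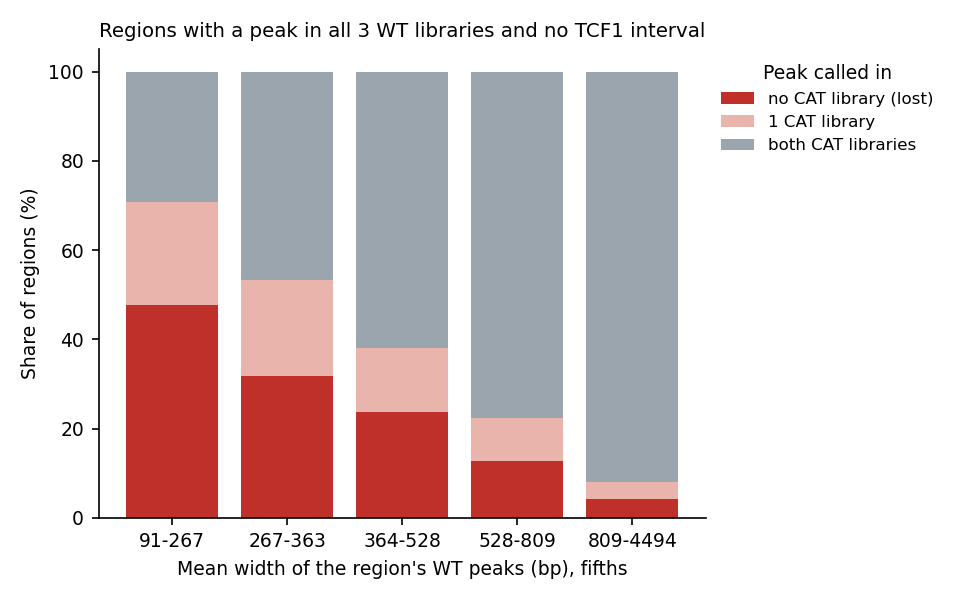
Regions with a peak in all 3 WT libraries and no TCF1 interval, in 5 equal classes of mean WT peak width (x axis, bp), with the share (y axis, %) that had a peak in no, 1 or both CAT libraries. The lost share is 47.7% in the narrowest class and 4.31% in the widest.

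Just outside the rule stood 3567 regions with a peak in all WT libraries and in 1 CAT library (1269 in CAT replicate 1, 2298 in CAT replicate 2), and 4115 with a peak in 2 WT libraries and in no CAT library. Regions with a peak in 1 CAT library were like the lost ones, with a median width of 405 bp and 12.6% within 1 kb of a start. A CAT peak lay within 100 bp of 1 lost region and within 500 bp of 76, and the median distance to the nearest CAT peak was 10.6 kb. When regions were chosen with 1 CAT and 2 WT libraries, the CAT library left out had a peak in 14.5% to 27.2% of them and the WT library left out in 72.0% to 95.7%, over the 6 possible choices. A single library could also miss a peak that the other 4 had, in 10.7% of such regions for CAT replicate 1 and 6.28% for CAT replicate 2, against 0.407%, 1.44% and 2.22% for WT replicates 1, 2 and 3.

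The lost share differed between chromosomes, at 12.6% of the regions in all WT libraries on chromosome 11 and 25.4% on chromosome 14. The chromosome 14 value rests on its first 8 Mb, where 75 of 88 such regions (85.2%) were lost, against 20.7% on the rest of the chromosome. These hold the longest stretch of neighbouring lost regions in the genome, 43 in a row over chr14:3057693-5805470, among predicted Gm genes such as Gm3005 and Gm3264 that are near-identical copies of each other. Reads there can be placed in several copies, and the regions are uncertain. Other uninterrupted stretches were shorter. The longest of them held 15 regions over chr14:7166396-7749824, 9 on chromosome 18 and 8 each on chromosomes 15 and 5. Some stretches of 6 or 7 regions are named here for the genes they hold. They are 7 over chr5:75143233-75695780, which holds the receptor genes Kit and Pdgfra, and 6 over chr6:52245888-52578807 at the end of the Hoxa cluster with Evx1. A further 7 lay over chr7:16633904-16729886 with Ceacam9 and Ceacam15. Of the 5910 lost regions 3389 had no other lost region as their neighbour among the regions in all WT libraries, and 1490 stood in runs of 2. Whether lost regions stood together more often than scattered ones would was not tested.

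Promoter windows in lost regions held ETS and NFY letters less often, and the E-box CAGGTG more often, than windows in common regions of about the same GC content. These shares describe the windows and were not tested. Of the 20 motifs searched on both strands, the ETS letters CCGGAAG were in 5.72% of the 437 windows in lost regions and in 19.3% of the 6843 windows in common regions, against 8.86% of all 32817 windows. The NFY letters CCAATC were in 13.7% of lost, 25.3% of common and 16.1% of all windows. The E-box letters CAGGTG went the other way, in 29.3% of lost, 18.004% of common and 20.2% of all windows, and so did the AP-1 letters TGANTCA, in 7.55%, 4.12% and 7.81%. Median GC was 61.7% in lost and 61.3% in common windows. Below a GC of 61.7% ETS letters stood in 5.16% of lost and 19.2% of common windows, and at or above it in 6.25% and 19.5%. The CpG ratio, observed over predicted from base content, was lower, with 51.7% of lost and 76.1% of common windows at 0.6 or more. The TCF/LEF letters CTTTGAT were in 2.29% of lost, 2.15% of common and 3.73% of all windows.

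The shares differed in the same direction among regions of like width. In regions of 456 to 997 bp, the range between the quartiles of width of the regions around lost windows, lost windows held the ETS letters in 3.65% of cases and the E-box CAGGTG in 31.1%, against 21.6% and 19.7% for common windows. Windows in regions with a peak in 1 CAT library were like lost ones, at 5.72% and 27.7%. A match is a description of the letters and says nothing of which factor binds. No genome was used, so the letters of regions away from starts were not read.

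**Figure D2:**
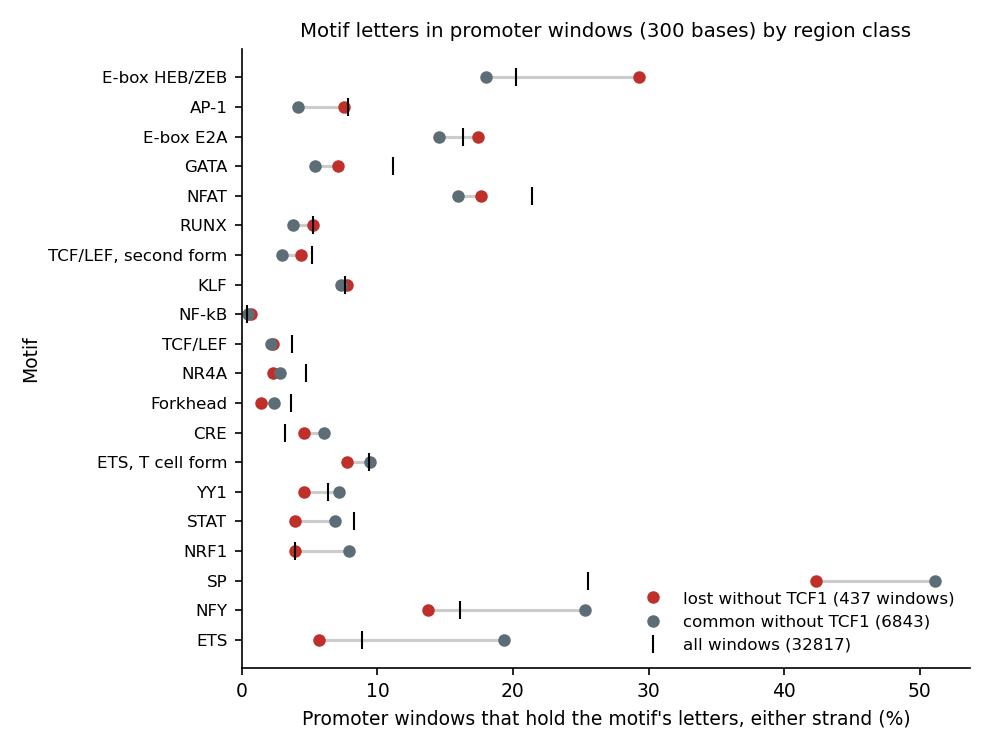
Share of promoter windows (x axis, %) that hold the letters of each of 20 motifs (y axis) in lost regions, in common regions without TCF1 and over all windows. The ETS letters differ most downward in lost windows (5.72% against 19.3%) and the E-box HEB/ZEB letters most upward (29.3% against 18.004%).

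RNA was compared between 3 CAT and 3 WT libraries with 24124086 to 31527245 fragments on genes. Of 13193 tested genes 3369 were higher (25.5%) and 3097 lower (23.5%) in CAT at an adjusted p under 0.05 (edgeR quasi-likelihood test, Benjamini-Hochberg), so 49.0% were called. Levels are given as FPKM, or as CPM, the estimated fragments of a gene scaled to the total of its library. WT replicates 1 and 3 had fragments on 19682 and 19776 genes, and the other 4 libraries on 15764 to 16079. The markers Foxp3, Il2ra, Ctla4, Ikzf2, Cd3e and Cd4 were present in every library, Foxp3 at 41.2 to 44.2 FPKM in CAT and 23.7 to 31.3 FPKM in WT. Of the CD8 T and NK cell list 10 of 11 tested genes were higher in CAT (90.9%, against 25.5% of all genes). Its summed level was 1247 to 3844 CPM in CAT and 32.1 to 37.8 in WT, and the CAT sum was mostly Gzma. Of that list Cd8a was at or below 0.389 FPKM in CAT and 0.156 in WT, and Ncr1 at or below 0.160 in CAT and 0.0468 in WT, while Cd8b1 was at 17.5 to 23.5 FPKM in CAT and 5.98 to 7.84 FPKM in WT. B cell genes summed to 12.6 to 19.9 in CAT and 22.5 to 28.3 in WT, and myeloid genes, mostly Cst3, to 92.2 to 100.1 in CAT and 51.5 to 67.7 in WT. Of the 8 tested myeloid genes 4 were higher and 3 lower, and Lyz2 was at 0.632 to 1.40 FPKM in CAT and 7.55 to 11.2 FPKM in WT. In these bulk libraries fewer cells of a type and less RNA per cell cannot be told apart.

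Genes that held lost regions changed in both directions. A gene was taken to hold a region that overlaps its span with 5 kb on both sides, and 2592 tested genes held at least 1. Common regions of a gene are counted below with or without a TCF1 interval. Of these 788 were higher (30.4%, against 25.5% of all genes) and 714 lower (27.5%, against 23.5%), with a median log2 change of 0.03, against 0.00 over all genes. A further 756 genes with a lost region had too few fragments to be tested. The 225 tested genes with 3 or more lost regions comprised 63 that rose (28.0%), 70 that fell (31.1%) and 92 that did neither. Their median was -0.02. Those with 4 or more numbered 86, with 30 higher (34.9%) and 28 lower (32.6%). Long genes hold more regions, and the median length was 169.9 kb for genes with 3 or more lost regions, against 21.5 kb over all genes. In the longest of 5 equal length classes of genes (63.0 kb and over) 59.1% of the 1134 genes with a lost region were called, against 51.1% of the 1494 without, and in the shortest class 50% of 244, against 45.1% of 2384. In the 3 classes between, from short to long, 54.8%, 57.6% and 61.2% of genes with a lost region were called, against 45.8%, 47.2% and 46.7% of those without.

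**Figure D3:**
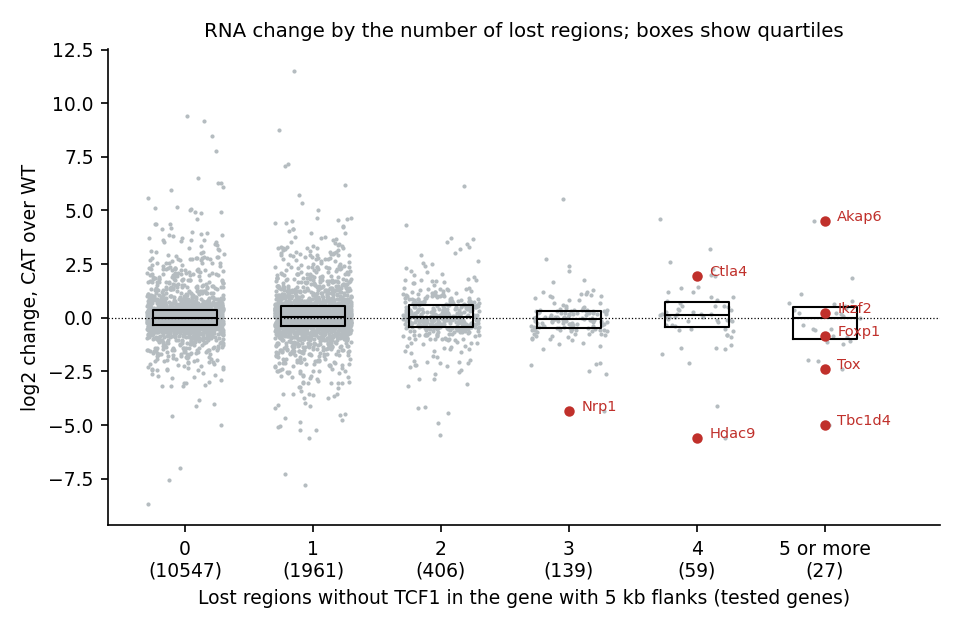
Log2 change of RNA, CAT over WT (y axis), for tested genes by the number of lost regions they hold (x axis, number of genes in brackets). Boxes show quartiles and medians, points are genes (2000 drawn at random where there are more), and every box is centred near 0 while single genes such as Tbc1d4 and Akap6 lie far from it.

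The gene with the largest drop among the 12 genes with most lost regions was Tbc1d4, a Rab GTPase-activating protein of glucose transporter traffic. It had 11.5, 15.9 and 22.4 CPM in CAT, against 541, 555 and 504 in WT. All CAT values lay far below all WT values, and the log2 change was -5.00 ± 0.22 (SE, adjusted p = 4.82e-07, edgeR). Of its 11 regions with a peak in all WT libraries 6 were lost, 4 had a peak in all 5 libraries and none was gained. The 6 lost regions were 242 to 767 bp wide and lay 91.6 to 140.8 kb from the start, between chr14:101467610 and chr14:101517625. The 4 common regions also lay away from the start. Those at 34.6 and 68.0 kb from the gene's lower end stood among the lost ones. The region over the start had a peak in 1 CAT library.

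Tox, an HMG-box nuclear factor of CD4 T cell development, held 8 lost regions among 19 in all WT libraries. It had 6.86, 8.74 and 15.3 CPM in CAT, against 55.3, 54.97 and 53.1 in WT, and fell by 2.40 ± 0.24 on the log2 scale (SE, adjusted p = 5.47e-05, edgeR). The lost regions were spread along its 305 kb, between chr4:6748238 and chr4:6989822. Another 8 of its regions were common.

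Foxp1, a Forkhead factor that keeps naive T cells quiescent, also held 8 of 24, and they ran along most of its 597 kb. It had 149.7, 160.5 and 187 CPM in CAT, against 260.2, 320.3 and 310.5 in WT, a log2 change of -0.84 ± 0.11 (SE, adjusted p = 0.00027, edgeR). The groups did not overlap, but the drop was smaller than that of Tbc1d4 or Tox. The lost regions included chr6:99028062-99028770, which covers a start inside the gene and the window shown above, and chr6:99521114-99522318, 0.121 kb from another start. The region over the gene's upper end, where this minus-strand gene begins, had a peak in all 3 WT libraries and in 1 CAT library. That region held a TCF1 interval. Of the other Foxp1 regions 10 had a peak in all 5 libraries.

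Of the other genes with most lost regions, Ldlrad4, which dampens TGF-β signalling, fell by 1.22 ± 0.14 with 9 lost regions, and St8sia1, which makes the ganglioside GD3, fell by 1.98 ± 0.38 with 6. Nfia fell by 0.52 ± 0.16 with 8, and 2610307P16Rik by 2.02 ± 0.63 with 7, both at under 1 FPKM. Their calls did not hold under every alternative, with adjusted p between 0.0169 and 0.381 for Nfia and between 7.85e-05 and 0.223 for 2610307P16Rik, and both lost the call without CAT replicate 2 or WT replicate 3. Atxn1, which binds transcriptional repressors, was higher by 1.09 ± 0.11 with 7 lost regions and only 2 common ones of 14. Nsmce2, a SUMO ligase of DNA repair, Etv6, an ETS repressor, and Prkch, a protein kinase C, each held 6 and were higher by 0.70 ± 0.11, 0.63 ± 0.10 and 0.44 ± 0.09. Jazf1, a zinc finger protein, lost 7 of 9 and was higher by 0.38 ± 0.14, with an adjusted p of 0.0483 that ran between 0.0179 and 0.456 over the alternatives. These values are log2 changes, CAT over WT, with their SE (edgeR). Of these 12 genes 7 fell and 5 rose, where 25.5% of all tested genes were higher and 23.5% lower. Of the 86 genes with 4 or more lost regions 34.9% were higher and 32.6% lower. A 13th gene, Ikzf2, also held 6 lost regions, and it did not pass the test (log2 change 0.23 ± 0.09, adjusted p = 0.061, edgeR). Ties among the 6 genes with 6 regions were settled by the larger change. That all 12 genes passed the test thus follows in part from the choice.

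**Figure D4:**
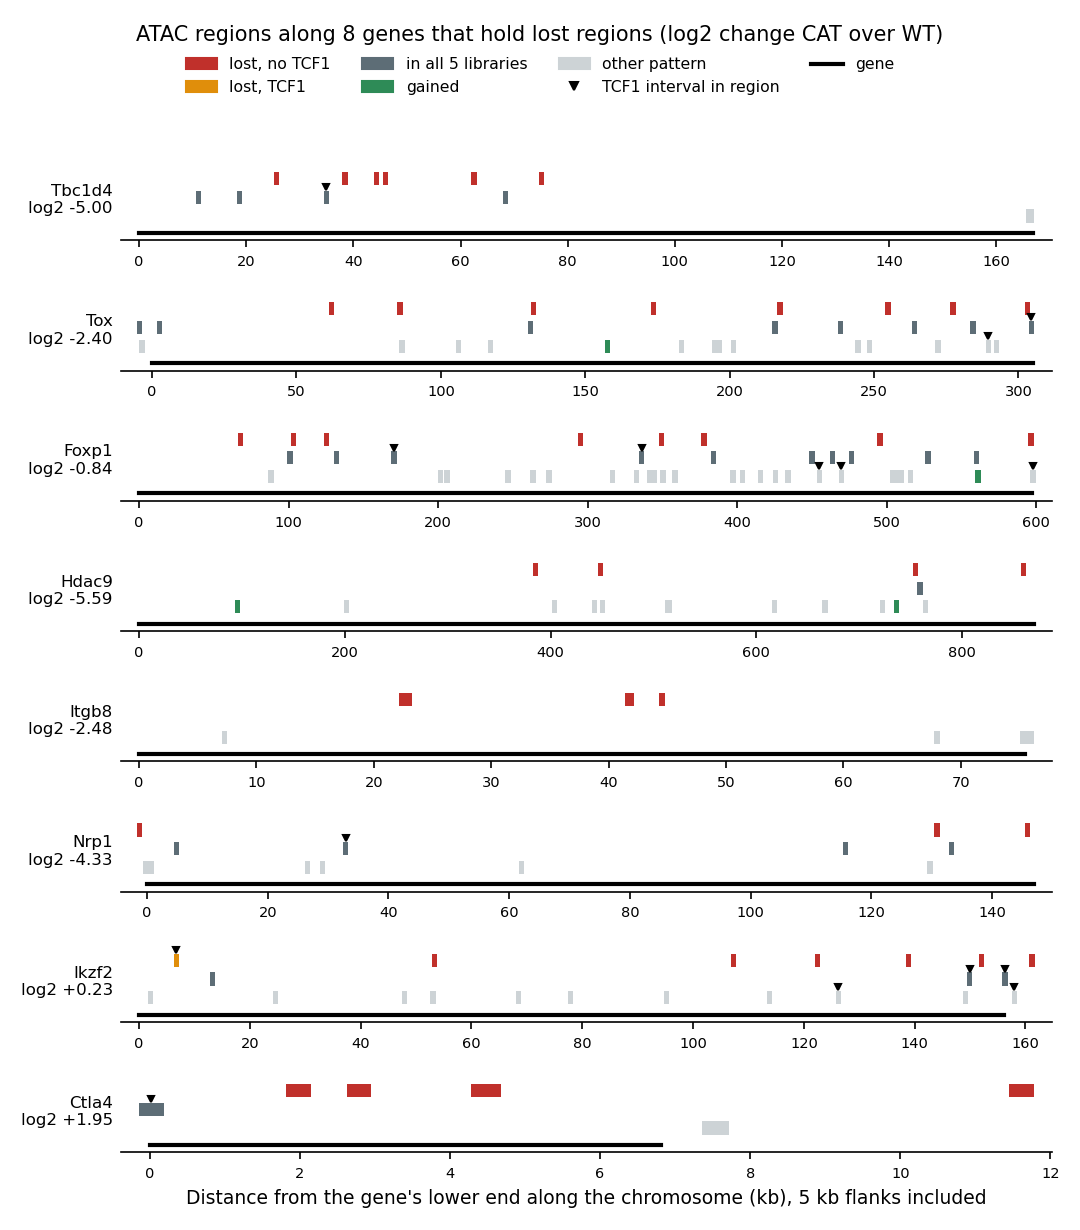
Regions along 8 genes (x axis, kb from the gene's lower end along the chromosome). Red marks lost regions without TCF1, grey regions in all 5 libraries and triangles TCF1 intervals. The 6 lost regions of Tbc1d4 lie away from its start, as its common regions do, and those of Tox and Foxp1 are spread out.

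The largest decreases among genes with 3 or more lost regions and at least 1 FPKM in either genotype reached a log2 change of -5.59. The 8 largest were picked by size of change past the threshold, so CAT and WT values that lie apart follow from the choice. Hdac9, a class IIa histone deacetylase, had 0.224, 0.297 and 0.357 CPM in CAT, against 16.1, 12.8 and 13.9 in WT, and lost 4 of 7 regions (log2 change -5.59 ± 0.22, SE, adjusted p = 2.86e-07, edgeR). Nrp1, a semaphorin co-receptor that marks regulatory T cells from the thymus, had 32.3, 23.1 and 28.3 in CAT, against 469, 595 and 620.1 in WT, a change of -4.33 ± 0.16 (SE, adjusted p = 2.08e-07, edgeR). It lost 3 of 8 regions, of which 1 lay 1.58 kb from a start and 2 lay 130.1 and 145.2 kb from one, inside the gene. Itgb8, whose product activates latent TGF-β together with integrin αv, lost 3 of 4, and the fourth, over its start, had a peak in 1 CAT library. It had 6.89, 8.31 and 10.6 in CAT, against 50.7, 48.0 and 45.2 in WT, and fell by 2.48 ± 0.15 (SE, adjusted p = 3.06e-06, edgeR). Itgav, which codes for its partner, lost 2 of 4 and did not pass the test, at 143 ± 33.8 in CAT and 121 ± 10.3 in WT (SD, n = 3 each). Ntn4, a netrin of basement membranes, lost 4 of 5 and none of its regions was common. It had 0.224, 0.339 and 3.14 in CAT, against 21.1, 22.5 and 23.1 in WT, and CAT replicate 3 stood above the other CAT libraries. Sesn1, a sestrin that restrains mTORC1, fell by 2.14 ± 0.11, and St6galnac3, a sialyltransferase, by 2.62 ± 0.23, each with 3 lost regions.

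The largest increases in genes with 3 or more lost regions were of like size. Akap6, an anchor of protein kinase A, lost 5 of 7 regions and had 36.1, 27.3 and 22.2 CPM in CAT, against 1.97, 0.826 and 1.03 in WT (log2 change 4.50 ± 0.30, SE, adjusted p = 5.53e-06, edgeR). It also gained 3 regions. Ston2, an endocytic adaptor, lost 4 of 11 and gained none, and rose by 4.59 ± 0.24. Sh3bgrl2 lost 4 of 5, with 454, 539 and 657 in CAT, against 66.1, 60.1 and 54.96 in WT, and kept 1 common region. Cdk6, a kinase of the G1 phase, lost 4 of 11 and had 132, 129 and 109 in CAT, against 17.5, 22.6 and 20.7 in WT. Sgk1, a kinase downstream of PI3K, lost 3 of 7, among them chr10:21992699-21993399 beside a start, and had 107, 97.9 and 96.1 in CAT, against 16.7, 14.2 and 14.6 in WT. These genes too were picked by the size of their change, so CAT and WT values that lie apart follow from the choice. Rapgef5, Tmcc3 and Ankrd55 rose by 2.28 ± 0.17, 2.39 ± 0.23 and 2.16 ± 0.10 with 4, 3 and 3 lost regions. Of 59 genes with 3 or more lost regions and a gained one 17 were higher (28.8%, against 25.5% of all genes) and 24 lower (40.7%, against 23.5%), and of 166 with none gained 46 were higher (27.7%) and 46 lower (27.7%). The difference between these groups of genes was not tested.

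**Figure D5:**
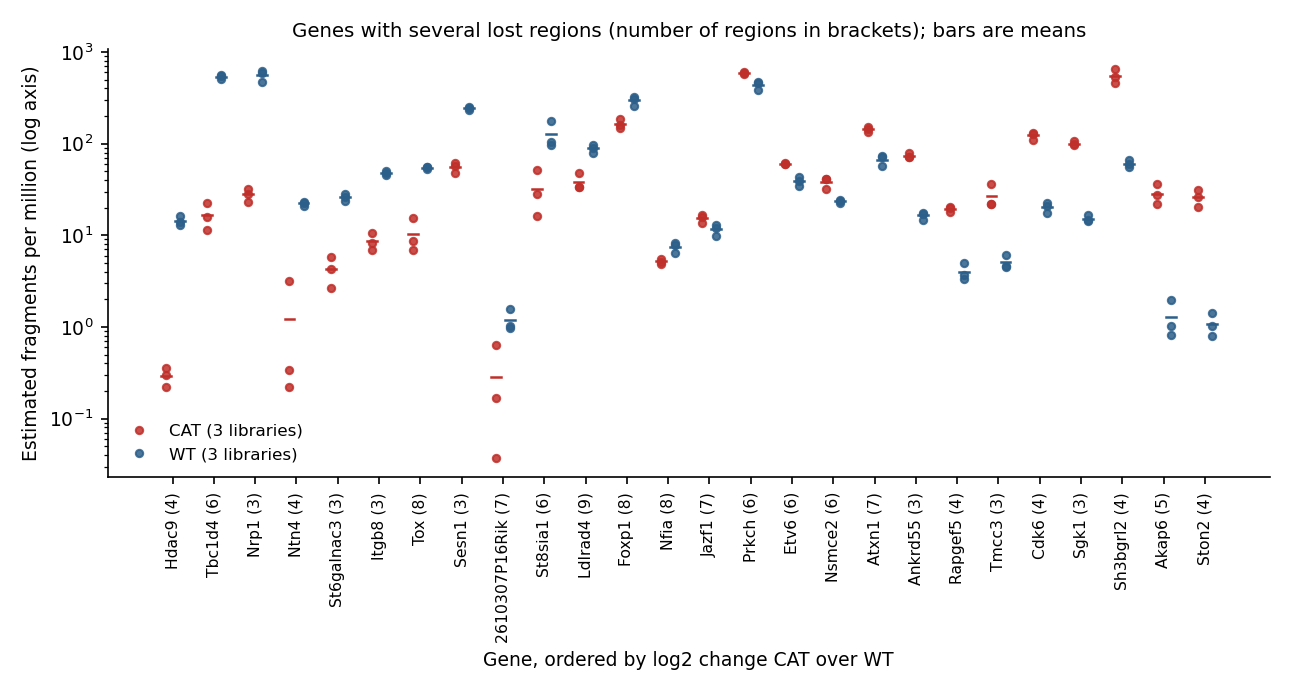
CPM (y axis, log scale) in each CAT and each WT library (points, means as bars) for the genes with most lost regions and those with the largest changes (x axis, number of lost regions in brackets). CAT values lie below WT values from Hdac9 to Nfia and above them from Jazf1 to Ston2.

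Genes of regulatory T cell identity and suppression lost regions while most of them rose. Of the 26 genes of that list 16 held 32 lost regions, where 2592 of the 13139 tested genes with a known position held at least 1. Of the 16, 12 rose, 3 fell and 1 missed the threshold. In the whole list 21 were higher (80.8%, against 25.5% of all genes) and 4 lower (15.4%, against 23.5%). The median log2 change of the list was 1.18, against 0.00 over all genes. The share that rose was thus no larger among genes with a lost region than in the whole list. Ctla4, the inhibitory receptor of regulatory T cells, lost 4 of 5 regions: 3 inside the gene, at chr1:60910834-60911174, chr1:60911647-60911975 and chr1:60913310-60913706, and 1 at chr1:60920476-60920801 behind it. Its start kept a peak in all 5 libraries, with a TCF1 interval. Ctla4 RNA was higher in CAT, at 2439.8 ± 563 CPM, against 630 ± 73.3 in WT (SD, n = 3 each, log2 change 1.95 ± 0.17, adjusted p = 2.13e-05, edgeR). Fgl2, a secreted suppressor molecule, lost 2 of 3 and rose by 3.04 ± 0.21, Tigit, an inhibitory receptor, lost 1 of 4 and rose by 2.76 ± 0.18, and Entpd1, the ectoenzyme CD39, lost 3 of 10, with its start among them, and rose by 1.04 ± 0.08. Lrrc32, which presents latent TGF-β, lost 2 of 3 and rose by 1.23 ± 0.29.

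The 3 genes of the list that held lost regions and fell were Nrp1, given above, Pdcd1, the receptor PD-1, at -1.44 ± 0.11 with 2 of 4 lost, and Nt5e, the ectoenzyme CD73, at -0.71 ± 0.17 with 1 of 4. Ikzf2, the Ikaros family factor Helios, lost 6 of 11 regions without TCF1 and another with a TCF1 interval. Its RNA was 2099.6 ± 148 in CAT and 1793 ± 48.6 in WT (SD, n = 3 each) and did not pass the test (adjusted p = 0.061, edgeR; 0.0251 to 0.316 over the alternatives). Foxp3, Il2ra, Itgae, Lef1, Id3 and Ccr7 held no such region. Foxp3 had 1 lost region, with a TCF1 interval, and 1 common region, and all 4 WT regions of Il2ra had a peak in all 5 libraries. Id3, an inhibitor of E proteins, fell by 4.51 ± 0.23 with both of its WT regions common, so a strong decrease was also seen with no lost region.

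Of 36 T cell transcription factors 21 held 58, and 9 of these were higher (42.9%, against 25.5% of all genes) and 7 lower (33.3%, against 23.5%). In the whole list 44.4% were higher and 30.6% lower. Among those that fell besides Tox and Foxp1 were Bcl6, Zbtb20, Bach2 and Foxo1, Bach2 by 1.53 ± 0.26 with 2 of 19 lost and Foxo1 by 0.61 ± 0.12 with 3 of 4 lost. Rora, with 4 of 11 lost, rose by 1.19 ± 0.19, Prdm1, which codes for Blimp-1, by 3.30 ± 0.10 with 1 of 6, and Runx2 by 2.41 ± 0.26 with 2 of 8. Elf1 held 4 lost regions and did not pass the test, at a log2 change of 0.11 ± 0.08. Outside that list, Satb1, a chromatin organiser, lost 2 of 6 and rose by 0.68 ± 0.08.

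In the TGF-β list 10 of 18 genes held lost regions, of which 6 fell and 2 rose: Tgfbr2, the type II receptor, fell by 0.65 ± 0.10 with 2 of 7 lost, and Smad3, a signal transducer, rose by 0.67 ± 0.15 with 2 of 7. In the whole list 10 of 18 were lower (55.6%, against 23.5% of all genes). Of the Wnt pathway list 7 of 31 genes held 8 lost regions, and of these 7 none rose and 3 fell, namely Lrp6, a co-receptor, Bcl9l, which binds β-catenin, and Tle4, a co-repressor, by 0.28 ± 0.09, 1.38 ± 0.20 and 0.45 ± 0.10. The adjusted p ran up to 0.159 for Lrp6, which lost its call in 7 of 13 alternatives, and up to 0.0569 for Tle4. In the whole Wnt list 4 of 28 tested genes were higher (14.3%, against 25.5% of all genes) and 10 lower (35.7%, against 23.5%). In the cytokine receptor and STAT list 15 genes held lost regions, with 8 higher (53.3%) and 2 lower (13.3%), where 64.5% of the whole list was higher and 9.68% lower, and Il10ra lost 2 of 3 and rose by 0.76 ± 0.08. In the T cell receptor and costimulation list 15 of 32 genes held 26, with 5 higher (33.3%) and 6 lower (40.0%), against 28.1% and 25.0% of the whole list, among them the co-receptor Icos, which rose by 2.94 ± 0.16 with 1 of 4 lost, and Cd28, which fell by 0.90 ± 0.08 with 1 of 4. Themis, of the same list, held 4 lost regions and did not pass the test, at 0.17 ± 0.13. The proliferation list held 2 lost regions, in 2 of its 20 genes. In the whole proliferation list 19 of 20 genes were higher in CAT (95.0%, against 25.5% of all genes). The interferon response list held 3 lost regions, in 3 of its 27 genes.

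Genes whose start lost its peak also changed in both directions. Of 369 tested genes with a lost region within 1 kb of a start 116 were higher (31.4%, against 25.5%) and 98 lower (26.6%, against 23.5%), with a median log2 change of 0.05. Of the 144 that had no common region left anywhere in the gene 51 were higher (35.4%) and 38 lower (26.4%). The median WT level of the 369 was 2.53 FPKM, against 10.8 FPKM over all genes. Gzma, the protease granzyme A, had 1 region in all WT libraries, chr13:113100822-113101196 over its start, and that region had no peak in either CAT library. Its RNA was 4119, 4222 and 1541 FPKM in CAT, against 1.94, 0.404 and 0.981 FPKM in WT (log2 change 11.51 ± 0.67, adjusted p = 2.43e-06, edgeR). Esm1, which codes for a secreted proteoglycan and lies on the same chromosome, had 67.3, 60.4 and 65.5 FPKM in CAT, against 0.931, 0.207 and 0.294 in WT, and also had its only WT region at the start lost. Eomes, a T-box factor of cytotoxic cells, lost 1 of 3 regions near its start and had 9.88, 10.5 and 11.5 FPKM in CAT, against 0.312, 0.359 and 0.328 in WT. Gzma and Eomes belong to the CD8 T and NK list given above, so its summed level moves with them by its make-up. In the other direction, Noxa1, an NADPH oxidase activator, had 0.138, 0.0557 and 0.164 FPKM in CAT, against 4.35, 3.53 and 4.42 in WT. Hgf, hepatocyte growth factor, had 0.244, 0.264 and 0.292 FPKM in CAT, against 2.88, 3.34 and 3.03 in WT, and Evl, an actin regulator, had 22.3, 26.3 and 42.7, against 168, 171 and 167. Most of these genes were named for large changes, so CAT and WT values that lie apart follow from that choice. Evl was picked after its values were seen.

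In 48 tested genes every region in all WT libraries, 2 or more, was lost, and of these 11 were higher (22.9%, against 25.5% of all genes) and 15 lower (31.3%, against 23.5%). Of the 11, 6 are Gm genes in the first 8 Mb of chromosome 14, where reads can be placed in several copies. Without that stretch 5 of 41 genes were higher (12.2%) and 15 lower (36.6%). The 48 included Nrn1, which codes for a membrane-anchored neuronal protein, at 2.44 FPKM in CAT and 20.9 FPKM in WT (log2 change -3.19 ± 0.20, adjusted p = 4.32e-06, edgeR), and Sh3gl3, whose 5 WT regions were all lost and whose RNA did not pass the test, at 18.6 FPKM in CAT and 12.7 FPKM in WT.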

How the data were processed

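ATAC-seq peaks and TCF1 intervals on mm10 were made with Bowtie, MACS2 and HOMER among the tools listed per the submitters' processing notes, which give no version here. Peak names in the deposited lists show calls per library, and the authors' pileup signal was used as list medians only, because within a list it hardly followed peak width (Spearman's rho of 0.0381 to 0.0547, across peaks). For RNA the authors deposited FPKM values and estimated counts of fragments per gene per the file headers, and a table with p-values and q-values that gave gene loci and was not used for calls. The aligner of the RNA reads is not given in the sources used here.

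Estimated counts (92.5% whole as deposited) were rounded and tested with edgeR 4.0.16 (TMM, quasi-likelihood test, R 4.3.3) over 13193 genes at an adjusted p of 0.05. DESeq2 1.42.0 and limma 3.58.1 on log2(FPKM + 1) were alternatives. Left out were 27 identifiers turned into dates and 13 genes with a failed estimate. On simulated data with 200 genes changed 4-fold, over 12790 genes, 93.5% were recovered and 7.88% of calls were false. Peaks overlapping by at least 1 bp were joined, and regions were given to genes within 5 kb by the RefSeq gene table of GRCm38.p6. Of 24300 gene identifiers 24157 matched it. CPM values are scaled by TMM, and values of FPKM are per length.

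Genes named are the 12 with most lost regions (ties by the larger size of change, which left out 1 of 6 genes with 6 regions), the 8 largest decreases and increases among genes with at least 3 and an FPKM of at least 1, 12 genes given whatever their values, and up to 3 of each gene list; others are values of list members or of lost starts. Regions, lists and tests were chosen with earlier results of these data known. Promoter windows were searched on both strands for 20 motifs with no overlap rule between motifs. The planned 200-base windows at region centres were not made, since no genome was used. Samples sharing a replicate number did not deviate together in every pair, so no pairing was used. Some genes that these rules name are not reported here.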

Additional observations from a re-analysis of the deposited data

How the results depend on the processing

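The number of lost regions was 5833 to 5922 under the other rules for joining peaks, for a CAT peak nearby and for a TCF1 interval nearby, and 6284 to 8565 when 1 ATAC library was left out. The planned limit on the authors' q value was not run, because the score columns hardly followed the coordinates beside them. Without each ATAC or RNA library in turn, genes with 1 or more lost regions numbered 2626 to 3427, with 648 to 1014 higher, 584 to 905 lower and a median log2 change of 0.00663 to 0.0409. Those with 3 or more numbered 226 to 405, with 53 to 118 higher, 55 to 124 lower and a median of -0.0450 to 0.0107, the largest numbers without WT ATAC replicate 3. Over all genes 2688 to 3583 were higher and 2417 to 3364 lower. With 50 kb on both sides of a gene, 5866 genes held a lost region (1603 higher, 1427 lower). As shares these lay nearer to those of all genes (25.5% and 23.5%) than the shares with 5 kb did (30.4% and 27.5%). With 50 kb, 760 genes held 3 or more (239 higher, 201 lower, median 0.0357). Leaving out genes in the first 8 Mb of chromosome 14, chosen after seeing the data, 61 of 223 with 3 or more were higher (27.4%) and 70 lower (31.4%). By nearest start 37 genes with 3 or more were higher (median -0.0475). At least 2 regions gave 631 genes (188 higher, 181 lower, median 0.0112) and at least 4 gave 86 (30 higher, 28 lower, median 0.0714). The median was 0.0163 for 1 or more without flanks, and 0.0112 for 3 or more with no CAT peak within 500 bp. Upper quartile factors gave medians of -0.00847 for 1 or more and -0.0538 for 3 or more, and no filter -0.0596 and -0.0598, where the median of all genes was -0.22. limma on log2(FPKM + 1) called 2099 genes higher and 1834 lower (523 and 436 of those with a lost region; median 0.0195 for 3 or more), and with 0.1 added 2093 and 1815 (522 and 433; 0.0201). WT replicates 1 and 3 were also both left out, because they had fragments on more genes than WT replicate 2. This was chosen after seeing the data. With the spread of WT replicate 2 assumed like that of CAT, 1954 were higher and 1631 lower (457 and 431 of those with a lost region). Of genes with 3 or more, 34 were higher and the median was -0.0600. These counts rest on the assumed spread. The cause of these shifts was not tested. With the replicate number as a block 3349 genes were higher and 3035 lower, and 62 and 69 of those with 3 or more. Same-numbered libraries correlated at 0.0996, -0.0475 and 0.0987 in their deviations, so they share only a number, and Jazf1 lost its call under the block. Of the values under alternatives for single genes and for the median of all genes, 813 were labelled as unchanged. For a single gene this means that direction and call were kept. The call of a single gene was lost in 55 cases and gained in 5. ATAC read depth is unknown, so a missing peak has no limit of detection here.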
